A study of Mus musculus with 3 samples.

Results

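Gamma-delta T cells of the mouse infrarenal aorta were examined in 3 single-cell RNA sequencing libraries. The cells were chosen by the counts of their own marker genes. A cell had at least 2 UMIs (unique molecular identifiers, the molecules counted) of Cd3d, Cd3e and Cd3g together and at least 2 UMIs of Trdc and Cd163l1 together. It had 0 UMIs of Cd4, Cd8a, Cd8b1, Foxp3 and Cd79a. Barcodes entered with 200 or more genes and with no more than 10% of their UMIs on mitochondrial genes. This gave 114 gamma-delta T cells among 9750 filtered cells, from 17389 barcodes. All mice are labelled wild type, and their age is not given in the sources used here. Sham is labelled as treated with PBS and AAA_14 (AAA, abdominal aortic aneurysm) with elastase, which injures the aortic wall. AAA_7 is an aneurysm library by its title but is labelled PBS, so its treatment is in doubt, and the unit of the numbers 7 and 14 is not given. In all 3 libraries the cells had been selected with CD45 and viability microbeads. The protocol pooled the aortas of a group, 20 for AAA and 50 for control, without saying how they divide over AAA_7 and AAA_14. Each group is therefore 1 pooled library, and differences between libraries have no replicate check.

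Gamma-delta T cells carry an antigen receptor made of a gamma and a delta chain instead of the alpha and beta chains of CD4 and CD8 T cells. In mice, many of them are committed in the thymus to make either interleukin 17 or interferon gamma. Those that make interleukin 17 answer interleukin 1 and interleukin 23, lack CD27 and often settle in tissues. Those that make interferon gamma usually keep CD27 and share genes with natural killer (NK) cells. Cd163l1 encodes a scavenger receptor known from the interleukin 17 branch.

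The 2 branches differ in the V segments of their receptors, so the germline V exons read most often in these cells are shown first. Trdv4 and Tcrg-V6 are delta and gamma segments known to pair in tissue cells that make interleukin 17. Trgv2 was the gamma segment read in most Sham cells. The last coding exon is given 5′ to 3′ from the GENCODE vM21 transcripts (GRCm38), limited to its last 300 bases. Capitals run from the cysteine codon that follows a tyrosine codon to the 3′ end, the side on which recombination adds the joint. Trdv4 lies at chr14:54075217-54075515 on the plus strand, Tcrg-V6 at chr13:19190630-19190929 on the plus strand and Trgv2 at chr13:19336573-19336872 on the minus strand.
Trdv4: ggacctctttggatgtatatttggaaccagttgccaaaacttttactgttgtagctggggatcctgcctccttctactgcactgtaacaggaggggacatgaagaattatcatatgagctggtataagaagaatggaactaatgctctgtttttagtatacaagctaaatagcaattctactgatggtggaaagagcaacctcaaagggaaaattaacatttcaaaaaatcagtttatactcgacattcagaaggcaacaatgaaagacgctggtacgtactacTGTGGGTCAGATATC
Tcrg-V6: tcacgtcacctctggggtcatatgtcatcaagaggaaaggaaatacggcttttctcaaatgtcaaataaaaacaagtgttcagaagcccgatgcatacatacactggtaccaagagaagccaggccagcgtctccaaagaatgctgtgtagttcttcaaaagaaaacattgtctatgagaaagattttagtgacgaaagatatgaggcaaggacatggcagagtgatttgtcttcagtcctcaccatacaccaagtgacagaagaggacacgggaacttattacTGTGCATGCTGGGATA
Trgv2: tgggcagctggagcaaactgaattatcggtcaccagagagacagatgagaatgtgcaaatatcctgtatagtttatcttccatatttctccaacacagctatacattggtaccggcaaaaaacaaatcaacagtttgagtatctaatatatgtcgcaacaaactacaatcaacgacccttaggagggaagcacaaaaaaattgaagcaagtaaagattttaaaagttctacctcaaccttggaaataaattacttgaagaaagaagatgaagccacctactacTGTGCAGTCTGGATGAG

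Trdc, the constant segment of the delta chain (GRCm38 chr14:54142851-54148868), and Cd163l1 (chr7:140218267-140231145) chose the cells, so their levels are a description only. Trdc was read in 13 of 13 Sham cells, 36 of 37 AAA_7 cells and 64 of 64 AAA_14 cells, with 6, 4 and 12 UMIs in the median cell. Cd163l1 was read in 1, 27 and 54 of these cells. In B cells, which should lack both genes, Trdc was read in 0 of 360, 1 of 420 and 10 of 1522 cells. The gate did not use the gamma constant genes Tcrg-C1, Tcrg-C2 and Tcrg-C4, and at least 1 of the 3 was read in 7, 28 and 62 cells. Trac, the constant gene of the alpha chain, which the gate did not use either, was read in 4, 1 and 14 cells, so in 19 of the 114. At least 1 of Trac and the beta constant genes Trbc1 and Trbc2 was read in 13, 23 and 62 cells. Most gated cells, and all 13 of Sham, thus held a transcript of an alpha or beta constant gene. Tcrg-C1 and Tcrg-C2 are near-identical copies, as are Trbc1 and Trbc2, and how the authors' counting shared reads between them is uncertain.

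Cells near the threshold were most numerous in AAA_7. Cells just inside it, with exactly 2 UMIs of Trdc and Cd163l1 together, numbered 1 in Sham, 5 in AAA_7 and 1 in AAA_14, of which 0, 1 and 1 held a gamma constant UMI. Cells just outside it, with 1 UMI, numbered 4, 10 and 3, of which 1, 2 and 1 held one. Of the cells with 4 or more UMIs, 7 of 11, 24 of 28 and 59 of 60 did.

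The gamma-delta cells held a median of 3580 UMIs in Sham, and of 3062 in AAA_7 and 6621.5 in AAA_14. Their summed UMIs were 56591, 120705 and 513217, and their median mitochondrial share was 8.03%, 0.645% and 6.80%. The mitochondrial limit removed 66.7%, 7.03% and 47.3% of each library's barcodes with 200 or more genes. AAA_7 thus stood apart in mitochondrial share and AAA_14 in depth. Pairs of libraries shared 5 to 12 barcodes, none of them gated. Markers of other cell types were present. The summed level of 10 neutrophil markers was 106 CPM (the UMIs of a gene or list scaled to a common total of the summed cells) in Sham. It was 5907 CPM in AAA_7 and 38114 CPM in AAA_14. The median cell held 0, 1 and 3 UMIs of these markers, and a single cell held 67.9% of them in AAA_7 and 60.4% in AAA_14. The 12 phagocyte markers summed to 17.7, 1607 and 1771 CPM, with 1, 12 and 12 of them detected. The 12 NK markers, some of which gamma-delta cells also transcribe, summed to 159, 1201 and 643 CPM, with 6, 9 and 11 detected. Cells with over 1% of their UMIs from neutrophil, phagocyte, B cell and stromal markers numbered 0, 4 and 5. Values without these marker-rich cells, an alternative chosen after seeing the data, are given where they differ, and the part of such cells in other results was not tested.

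**Figure D1:**
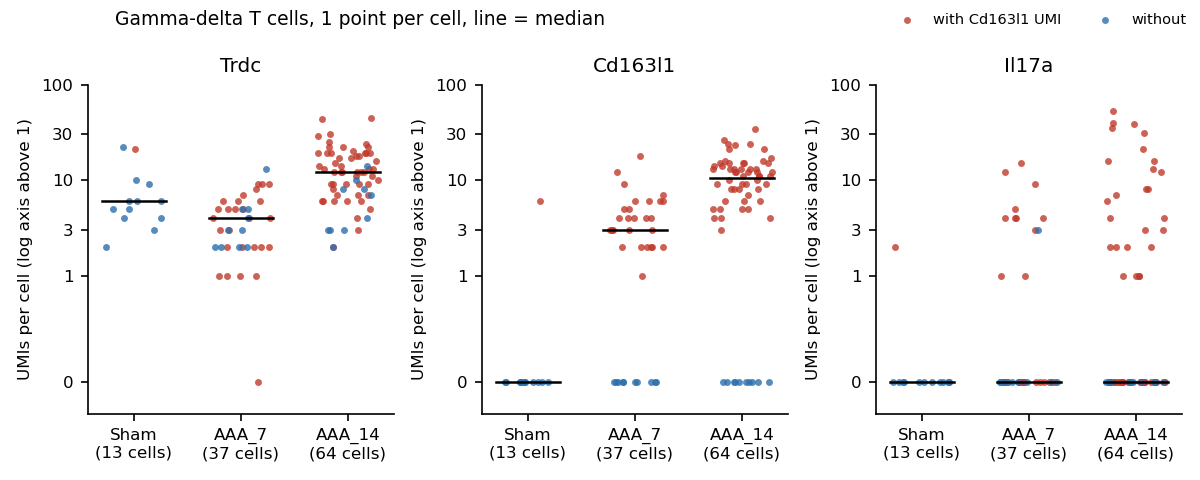
UMIs per cell of Trdc, Cd163l1 and Il17a in the gamma-delta T cells of each library, with 1 point per cell, red where the cell had a Cd163l1 UMI and blue where it had none. The vertical axis is logarithmic above 1 and black lines are medians. Il17a points above 0 are red in 1 of 1, 11 of 12 and 26 of 26 cells.

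Gamma-delta T cells were about 1% of filtered cells in each library. They were 13 of 1235 cells in Sham (1.05%, exact Clopper-Pearson 95% interval 0.562 to 1.79), 37 of 3229 in AAA_7 (1.15%, 0.808 to 1.58) and 64 of 5286 in AAA_14 (1.21%, 0.934 to 1.54). The intervals overlap, and like all intervals here they cover counting error only. Of cells with at least 2 Cd3 UMIs, they were 2.44% in Sham (1.31 to 4.14), 6.75% in AAA_7 (4.80 to 9.19) and 5.70% in AAA_14 (4.42 to 7.23). By this denominator the intervals of AAA_7 and AAA_14 lay above that of Sham and overlapped each other. The mitochondrial limit took 8 gated cells from Sham, 0 from AAA_7 and 23 from AAA_14, and at a limit of 5% Sham kept 0 and AAA_14 kept 7.

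Cells with a Cd163l1 UMI were a small part of the Sham gamma-delta cells and most of those of the other libraries. Cells with a Cd163l1 UMI were 1 of 13 in Sham (7.69%, 0.195 to 36.0), 27 of 37 in AAA_7 (73.0%, 55.9 to 86.2) and 54 of 64 in AAA_14 (84.4%, 73.1 to 92.2). As a share of all filtered cells they were 0.0810% (0.00205 to 0.450), 0.836% (0.552 to 1.21) and 1.02% (0.768 to 1.33). Gamma-delta cells without a Cd163l1 UMI were 12, 10 and 10 cells, which was 0.972% (0.503 to 1.69), 0.310% (0.149 to 0.569) and 0.189% (0.0908 to 0.348) of filtered cells. With no mitochondrial limit the cells with a Cd163l1 UMI were 4 of 21, 27 of 37 and 73 of 87. With every cell thinned to 1000 UMIs before gating they were 1 of 5, 13 of 15 and 26 of 36. Gamma-delta cells without one were then 0.327%, 0.0672% and 0.191% of filtered cells. The order of AAA_7 and AAA_14 thus changed with depth, and none is read. Cd163l1 is part of the gate, so these counts describe the cells and are not a test, and the contrast between libraries rests on 1 library each.

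Il17a, which encodes interleukin 17A (GRCm38 chr1:20730905-20734496), was not used to choose the cells. It was read in 1 of 13 Sham cells, 12 of 37 AAA_7 cells (32.4%, 18.0 to 49.8) and 26 of 64 AAA_14 cells (40.6%, 28.5 to 53.6). B cells held it in 0 of 360, 1 of 420 (0.238%) and 3 of 1522 (0.197%), at a median of 2401.5, 2029.5 and 5447.5 UMIs, so the shares in gamma-delta cells lie above the share in cells that should lack the gene. With every cell thinned to 1000 UMIs, Il17a was left in 8 of 37 AAA_7 cells (21.6%) and 11 of 64 AAA_14 cells (17.2%). The summed level was 35.3 CPM in Sham (2 UMIs), 539 in AAA_7 (65 UMIs) and 645 in AAA_14 (331 UMIs). The log2 ratio of AAA_14 over AAA_7, with 0.5 counts added to each sum, was 0.25 with an exact conditional binomial interval of -0.13 to 0.67, which holds 0. Without the marker-rich cells the ratio was 0.84 (0.39 to 1.35). At a mitochondrial limit of 5%, which kept 7 cells of AAA_14, it was -1.79 (-2.68 to -1.03). These intervals exclude 0 on opposite sides, so no direction is read for Il17a between these libraries.

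Il17a was uneven among the cells. In AAA_7 the UMIs per positive cell ran from 1 to 15 with a median of 4, and in AAA_14 from 1 to 53 with a median of 6.5. The 5 cells with most Il17a held 69.2% of its UMIs in AAA_7 and 59.8% in AAA_14. Positive and negative cells had median depths of 3567.5 and 2797 UMIs in AAA_7 and of 6576.5 and 6654.5 in AAA_14. Blk, an Src-family kinase known from gamma-delta cells that make interleukin 17, was read in 9 of the 12 positive cells of AAA_7 and 26 of the 26 of AAA_14. The chemokine receptor gene Cxcr6 was read in 9 and 26 of them. Cells without Il17a held these genes too, with Blk in 9 of 25 and 28 of 38 and Cxcr6 in 13 and 32.

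Other cytokines of the same branch were rare. Il17f, the near relative of Il17a, was read in 1 cell of AAA_7 (7 UMIs) and 1 cell of AAA_14 (2 UMIs). Csf2, the growth factor GM-CSF, had 0 UMIs in AAA_7 and 29 in 10 cells of AAA_14, which is at least 2.27-fold higher against a floor of 3 counts in AAA_7. Il22 had 0 and 4 UMIs, too few for a fold. Ifng, interferon gamma, was read in 5 cells of each of these libraries, and Il17a and Ifng were read together in 1 cell in all.

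Reads of V genes were sparse, in libraries that read transcripts from the 3′ end, far from the V segment. At least 1 of Trdv4, Tcrg-V6 and Trgv2 was read in 8 of 13 Sham cells, 16 of 37 AAA_7 cells and 42 of 64 AAA_14 cells. Trdv4 was read in 1 cell of Sham (7.69%, 0.195 to 36.0), 12 of AAA_7 (32.4%, 18.0 to 49.8) and 37 of AAA_14 (57.8%, 44.8 to 70.1), with 6, 21 and 61 UMIs. Its level was 174 CPM in AAA_7 and 119 in AAA_14, a log2 ratio of -0.57 (-1.29 to 0.24), so the share and the level ran in opposite directions and no order is read from them. Tcrg-V6 was read in 0, 4 and 9 cells, and 0 of 13 allows a share of cells with a UMI of up to 23.1% by a floor of 3 counts and 24.7% by the exact interval. Every cell with Tcrg-V6 had a Cd163l1 UMI, and so did 1 of 1, 11 of 12 and 37 of 37 cells with Trdv4. Both were read in the same cell in 0, 2 and 7 cells.

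Trgv2 showed another pattern. It was read in 8 of 13 Sham cells (61.5%, 31.6 to 86.1), 2 of 37 AAA_7 cells (5.41%, 0.661 to 18.2) and 11 of 64 AAA_14 cells (17.2%, 8.90 to 28.7). In Sham, 7 of these 8 cells had no Cd163l1 UMI, and in AAA_14, 10 of the 11 had one. Trav13-4-dv7 was read in 2 Sham cells and in 0 cells of the other libraries. Tcrg-V4 was read in 1, 0 and 1 cells and Tcrg-V1 in 0, 1 and 1. B cells held Trdv4 in 1, 0 and 0 cells and Trgv2 in 0, 0 and 1.

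**Figure D2:**
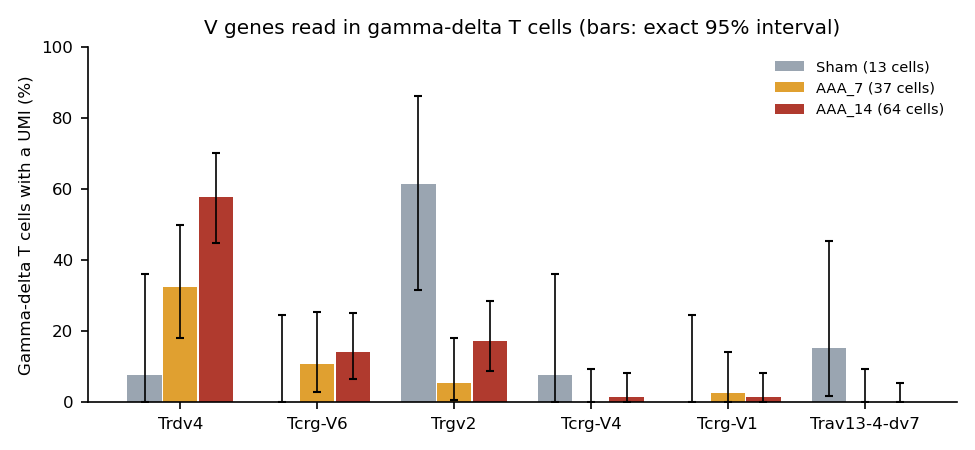
Share of gamma-delta T cells with at least 1 UMI of 6 V genes in each library. Bars start at 0 and whiskers are exact 95% intervals over cells, for counting error only. Trdv4 bars stand at 7.69%, 32.4% and 57.8%, and the Sham bar is the tallest for Trgv2.

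Gamma-delta cells with and without Cd163l1 held different genes. The split uses a gate gene and was made after the values were seen, so the counts are given with no test. Cells with it had a median of 2944 UMIs in AAA_7 and 6800.5 in AAA_14, and cells without it 3243 and 5532.5. Among cells with Cd163l1, the tissue-homing receptor gene Cxcr6 was read in 19 of the 27 in AAA_7. In AAA_14 it was read in all 54. Without Cd163l1 it was read in 3 of 10 and 4 of 10 cells. Ccr2, a chemokine receptor, was read in 24 and 53 cells with Cd163l1 and in 4 and 5 without. Sox13, a factor of early gamma-delta commitment, was read in 16 and 32 cells against 0 and 1. Blk was read in 16 and 53 cells against 2 and 1. Il1r1, the interleukin 1 receptor, was read in 8 and 30 cells against 1 and 0. Each of these 5 genes was missing from some cells with Cd163l1 in AAA_7. B cells held Cxcr6 in 0.476% and 0.591% of cells of these libraries.

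Genes of the interferon gamma and NK-like branch were read in a larger share of the cells without Cd163l1. These cells entered by Trdc alone, which NK cells also transcribe, and the gate does not exclude NK or alpha-beta T cells among them. They held up to 39 UMIs of NK markers in AAA_7 and up to 76 in AAA_14, in cells with 0 UMIs of Tcrg-C1. Cd27 was read in 0 of 27 and 0 of 54 cells with Cd163l1, which allows shares of cells with a UMI, not of cells expressing it, of up to 11.1% and 5.56%, and in 4 of 12 Sham, 2 of 10 AAA_7 and 7 of 10 AAA_14 cells without. Eomes, a transcription factor of cytotoxic cells, was read in 0 and 0 cells with Cd163l1 and in 1, 4 and 4 without. Ccl5, a chemokine of effector cells, was read in 0 and 4 cells with and in 9, 8 and 3 without. Nkg7, a protein of cytotoxic granules, was read in 1 and 4 cells with and in 11, 7 and 7 without. Ifng was read in 0 and 3 cells with and in 2, 5 and 2 without. Xcl1, another chemokine, was read in 0 and 0 cells with and in 3, 3 and 3 without. B cells held Ccl5 in 4.17%, 6.90% and 7.49% of cells and Nkg7 in 1.94%, 1.67% and 1.97%.

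Genes of recirculating T cells were read in both groups of cells. Tcf7, a factor of resting T cells, was read in 3 of 27 and 26 of 54 cells with Cd163l1, at 60.4 and 100 CPM, and in 10, 4 and 7 cells without in Sham, AAA_7 and AAA_14, at 283, 264 and 443 CPM. Klf2, which controls exit from tissue, stood at 121 CPM in cells with Cd163l1 and 1504 in cells without in AAA_7, but at 536 and 504 in AAA_14. Klf2 levels thus differed between the groups of cells in AAA_7 and were close in AAA_14. Sham had a single cell with Cd163l1, from which no level is read.

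**Figure D3:**
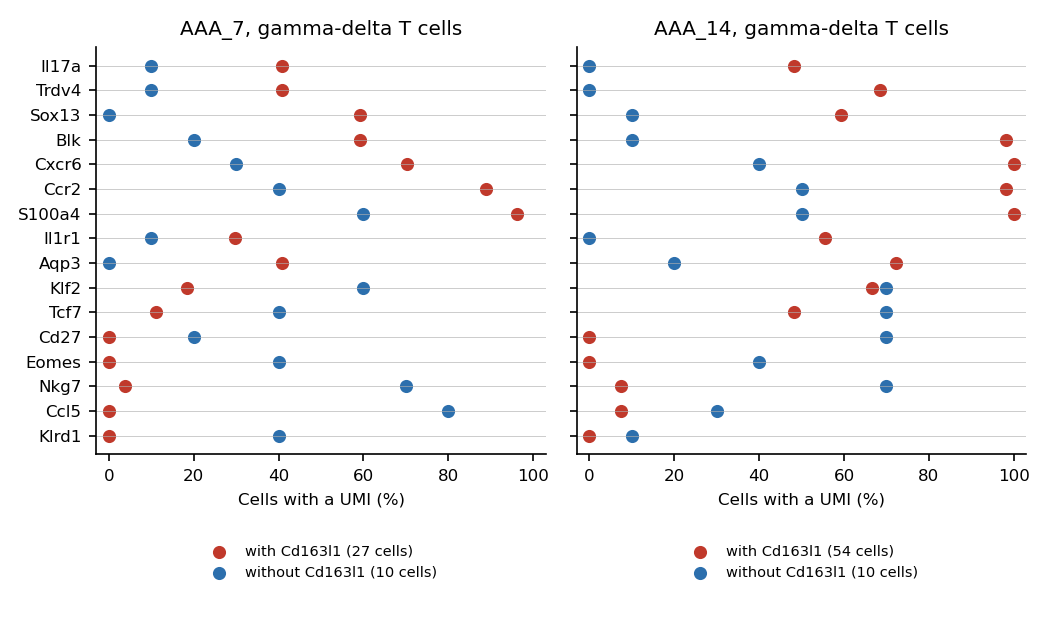
Share of gamma-delta T cells with a UMI of 16 genes, red for cells with a Cd163l1 UMI (27 in AAA_7, 54 in AAA_14) and blue for cells without (10 in each library). Red points lie to the right from Il17a to Aqp3 and blue points to the right from Klf2 to Klrd1 in both libraries.

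The gamma-delta cells were then compared with CD4 T cells (91 in AAA_7 and 325 in AAA_14) and CD8 T cells (167 and 249) of the same libraries. These were gated by Cd4, or by Cd8a and Cd8b1, with 0 UMIs of Trdc, Cd163l1, Foxp3 and Cd79a. Cells with a UMI of Foxp3, the regulatory T cell factor, are thus not among the CD4 cells. UMIs were summed per library and cell type, with NK sums (107 and 78 cells) added to share the spread. edgeR's quasi-likelihood test set the gamma-delta sums against the mean log level of the CD4 and CD8 sums, with the library as a block and 12 gate genes left out. The 2 libraries served as replicates, with 3 residual degrees of freedom, and p-values measure only the spread between these sums. Of 7163 genes tested, 531 (7.41%) were higher and 339 (4.73%) lower in gamma-delta cells at a Benjamini-Hochberg adjusted p of at most 0.05 over all genes. The median log2 fold change was -0.01. Without AAA_14 the counts were 89 and 15, and without AAA_7 they were 514 and 326. In both of these fits Sham sums of the other cell types took the missing place, and the lone gamma-delta sum was assumed to vary like the others.

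Gamma chain genes were higher and alpha and beta chain genes lower or not called in gamma-delta cells. Tcrg-C1 stood at 845 and 955 CPM in gamma-delta cells of AAA_7 and AAA_14, at 14.9 and 5.58 in CD4 cells and at 0 and 3.60 in CD8 cells, a log2 fold change of 7.53 ± 0.30 (SE, adjusted p = 7.9e-11 by edgeR). Trac stood at 8.28 and 56.5 CPM against 603 and 658 in CD4 cells and was lower by edgeR (log2 fold change -3.58). Trbc2 was lower (-0.92) and Trbc1 did not pass (-0.46, adjusted p = 0.11 by edgeR), and gamma-delta cells can transcribe the beta locus without a working chain. Trdv4 had 82 UMIs in gamma-delta cells and 0 in CD4 and CD8 cells. This is at least 259-fold higher against a floor of 3 counts over both cell types and libraries. Trdv4 is a segment of the same chain as Trdc, which helped to choose the gamma-delta cells and was barred from the CD4 and CD8 cells. The contrast was thus partly set by the gates and is a description only. Of the signalling genes of the T cell receptor, 1 of 13 tested was higher and 7 were lower, against 7.41% and 4.73% of all genes, so the higher count is near its background. Without AAA_14 these counts were 0 and 1. Cd247, which encodes the zeta chain, was the higher gene at 1.15 ± 0.19. Lck, the kinase that starts the signal, stood at 166 and 50.7 CPM against 341 and 323 in CD4 cells and was lower by -2.08. Cd5 (-2.25), Cd2 (-2.69), Cd28 (-2.81), Themis (-2.87), Cd6 (-3.03) and Ubash3a (-4.10) were lower too, where Cd28 is the costimulatory receptor and Cd5 a brake on receptor signals.

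Most genes of the interleukin 17 program were higher in gamma-delta cells, against the 7.41% of all genes. The lists were drawn up with results of these data known, so their counts are no independent evidence of a direction. Of the transcription factors and regulators, 11 of 17 tested were higher and 0 lower. At an unadjusted p under 0.05 and by DESeq2, 0 were lower as well, and DESeq2 called 9 higher. Without AAA_14, 7 were higher. Maf, a factor needed by these cells, stood at 886 and 801 CPM against 551 and 364 in CD4 and 74.0 and 61.2 in CD8 cells (a log2 fold change of 2.18 ± 0.19). Zbtb16, the factor of innate-like T cells, was higher by 6.03 ± 0.43 and Rora, a nuclear receptor, by 2.83 ± 0.25. Batf, Stat3, Ahr, Nfkbiz, Sox4 and Tcf12 did not pass, with log2 fold changes from -0.23 to 0.50.

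Of the receptors and surface genes of the program, 15 of 17 tested were higher and 0 lower, which also held at an unadjusted p under 0.05. DESeq2 called 13 of 17 higher, and without AAA_14 edgeR called 5 of 14. Il23r, the interleukin 23 receptor, stood at 66.3 and 72.1 CPM against 14.9 and 3.35 in CD4 cells (5.29 ± 0.64), and Il1r1 at 116 and 99.4 CPM against 17.4 and 19.0 (5.02 ± 0.43). Cxcr6 stood at 870 and 986 CPM against 222 and 151 in CD4 cells and 71.1 and 45.9 in CD8 cells (3.11 ± 0.23). Ccr2 was higher by 2.36 ± 0.17 and Il18r1, the interleukin 18 receptor, by 2.15 ± 0.18, while NK cells had Ccr2 at 636 and 554 CPM, near the 671 and 822 of gamma-delta cells. Il2ra, the high-affinity chain of the interleukin 2 receptor, was higher by 4.05 ± 0.48, a call kept in 13 of the 15 alternatives with an adjusted p by edgeR of up to 0.66. Cd9 (0.58) and Ly6a (0.39) did not pass.

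Of 21 other genes known from these cells, 20 were higher and 0 lower, again also at an unadjusted p under 0.05, with 17 higher by DESeq2 and 11 of 19 without AAA_14. The calcium-binding protein gene S100a6 stood at 3173 and 5013 CPM against 892 and 609 in CD4 cells (2.70 ± 0.22), and S100a4 at 2088 and 3833 against 790 and 861 (2.49 ± 0.25). The channel gene Aqp3 was higher by 3.70 ± 0.30 and the serpin gene Serpinb1a by 4.55 ± 0.30. Ramp3 (0.44) was the gene that did not pass. Il17a itself stood at 12.5 and 75.6 CPM in CD4 cells, 2.90 and 0.45 in CD8 cells and 0 in NK cells, and was higher in gamma-delta cells by 6.23 ± 0.38 (edgeR adjusted p = 3.4e-08). With Trdc alone in the gamma-delta gate, so that Cd163l1 chose no gamma-delta cell, the lists gave the same counts of 11, 15 and 20. The CD4 and CD8 cells were still required to hold 0 UMIs of Cd163l1.

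The genes of resting and recirculating T cells were lower, 11 of 13 tested against a background of 4.73%, with 0 higher by edgeR and 0 higher at an unadjusted p under 0.05. DESeq2 called 9 lower and 0 higher, and edgeR without AAA_14 called 1 lower. Ccr7, the receptor that guides cells to lymph nodes, stood at 24.9 and 11.7 CPM against 117 and 129 in CD4 and 263 and 259 in CD8 cells (-3.81 ± 0.46). Lef1 (-2.83) and Tcf7 (-1.97) were lower as well, while Klf2 (-0.06) and Ly6c2 (-0.86) did not pass. Of the tissue residence genes 7 of 13 were higher (3 of 14 without AAA_14), among them Itgae, the CD103 integrin, at 2.01 ± 0.36 and Rgs1, a regulator of chemokine signals, at 1.90 ± 0.23. The background for these counts was 7.41% of all genes higher and 4.73% lower. Of the type 1 and cytotoxic genes 1 of 23 was higher (Klrk1, the NKG2D receptor, 1.94) and 2 lower (Cd27, -2.26, and Klrd1, -1.71), near that background. Ifng stood at 124 and 46.8 CPM against 49.8 and 48.4 in CD4 cells (0.45, adjusted p = 0.43 by edgeR). None of 17 genes of oxidative phosphorylation and none of 17 interferon-stimulated genes passed, by edgeR or by DESeq2. At an unadjusted p under 0.05, edgeR gave 0 and 0 of the first and 0 higher and 3 lower of the second.

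Among the largest fold changes by edgeR of called genes with at least 20 UMIs in the higher cell type were, after Trdv4 (9.83), Sox13 (8.55), Clnk (8.49), Tdrd9 (8.46), Kcnk1 (7.84), Abi3bp (7.83), Blk (7.73), Tcrg-C1, Itgb4 (6.88), Zfp462 (6.74), Cryba4 (6.38), Tcrg-C2 (6.31), Tcrg-C4 (6.30) and Il17a. Clnk, an adaptor of immune receptors, and Tdrd9 had 0 UMIs in CD4 and CD8 cells against 33 and 31, at least 104-fold and 97.8-fold higher by the same floor. Sox13, Tdrd9, Kcnk1 and Abi3bp did not pass in DESeq2, with adjusted p from 0.22 to 0.37. At the other end A430093F15Rik, Pacsin1, Tnfrsf4, Ifi211, Chst2 and Egr3 had 0 UMIs in gamma-delta cells against between 75 and 233 in CD4 and CD8 cells, at least 2.64-fold to 8.21-fold lower with a floor of 3 counts in gamma-delta cells. Igfbp4 had 3 UMIs against 1619 (-5.88 ± 0.43), and St8sia1, Dapl1 and Fam49a had fold changes between -4.64 and -4.17. Without AAA_14, Igfbp4 was the only one of these 10 that passed by edgeR, and Clnk (adjusted p = 0.11) and Tcrg-C4 (0.080) did not pass either. Neutrophil markers were higher too, in 8 of 9 tested, and without the marker-rich cells 0 of 4 tested passed by edgeR.

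**Figure D4:**
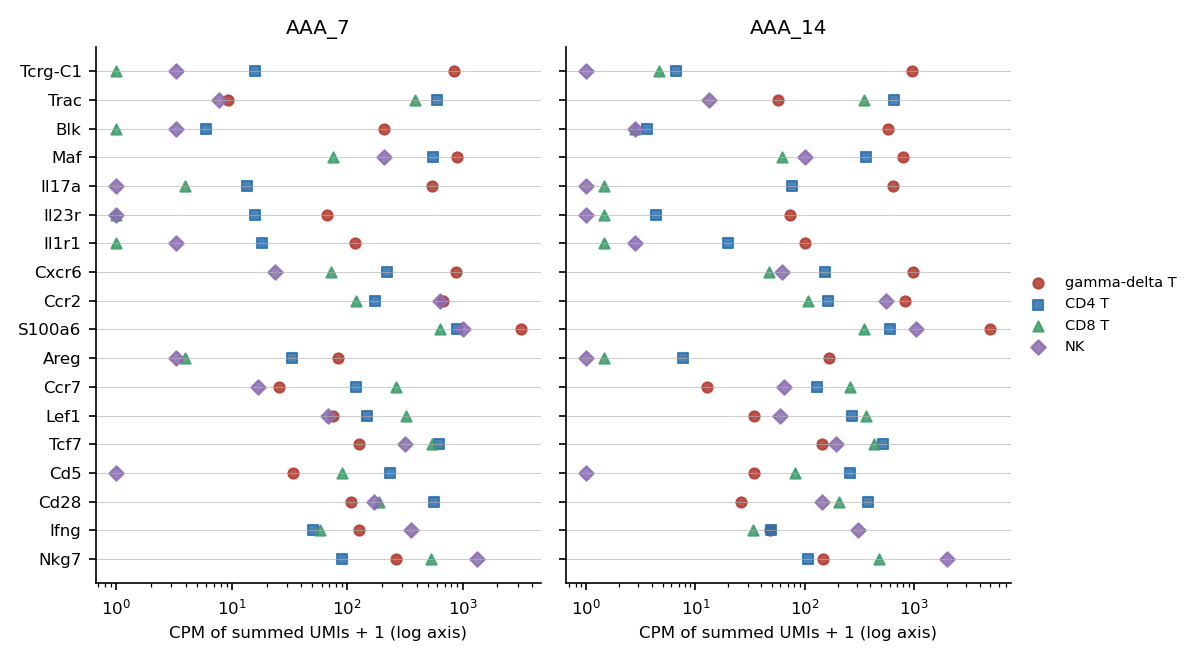
CPM of summed UMIs plus 1, on a log axis, of 18 genes in gamma-delta T, CD4 T, CD8 T and NK cells of AAA_7 and AAA_14, with 1 point per sum. Gamma-delta points lie farthest to the right for Tcrg-C1, Blk, Maf, Il17a, Il23r, Il1r1, Cxcr6, Ccr2, S100a6 and Areg, and to the left of both CD4 and CD8 points for Trac, Ccr7, Lef1, Tcf7, Cd5 and Cd28.

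Promoters of genes of the program are shown for Il17a and Il23r, because both genes were higher in gamma-delta cells and both windows hold AGGTCA, the core that nuclear receptors such as Rora are known to bind. The 250 bases before the RefSeq start (GRCm38.p6) are given in the direction of the gene, with AGGTCA on either strand in capitals. Il17a at chr1:20730655-20730904 (plus strand) holds 1 match, beginning 120 bases before the start. Il23r at chr6:67491856-67492105 (minus strand) holds 2, beginning 229 and 66 bases before the start. The motif is in 13.8% of 27025 promoters, and only 35 of the 47 genes of the program called higher had a promoter entry, so no share over the program is read. Of these 35, 6 held a match, Il17a and Il23r among them, and Rora and Cxcr6 are among those that held none. A match describes the letters in this window and not a bound site.
Il17a promoter: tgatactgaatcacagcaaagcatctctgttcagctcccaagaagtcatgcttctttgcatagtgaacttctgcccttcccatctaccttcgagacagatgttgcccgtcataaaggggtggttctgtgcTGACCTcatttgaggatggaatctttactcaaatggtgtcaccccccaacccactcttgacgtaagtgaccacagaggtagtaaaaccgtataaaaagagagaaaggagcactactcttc
Il23r promoter: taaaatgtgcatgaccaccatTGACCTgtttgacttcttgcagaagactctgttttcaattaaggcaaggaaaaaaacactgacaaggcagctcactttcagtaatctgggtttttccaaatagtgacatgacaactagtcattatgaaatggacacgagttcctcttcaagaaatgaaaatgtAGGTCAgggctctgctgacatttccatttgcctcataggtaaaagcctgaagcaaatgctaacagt

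Within gamma-delta cells, AAA_14 was set against AAA_7 by ratios of CPM. With 1 library a group there is no test, and intervals cover counting error only. Of 4602 genes that reached 20 UMIs over these libraries, 514 (11.2%) stood 2-fold or more above their AAA_7 level and 432 (9.39%) 2-fold or more below it. The median log2 ratio was -0.03, and -0.14 and -0.06 for the same genes in CD4 and CD8 cells. TMM scaling by edgeR's method, computed from the gamma-delta sums of AAA_7 and AAA_14 alone, differed from plain totals. The log2 scaling difference of AAA_14 over AAA_7 was -0.10. Mitochondrial share and depth moved with the libraries (median cell 0.645% and 3062 UMIs in AAA_7, 6.80% and 6621.5 UMIs in AAA_14), and their part cannot be told apart from that of the group.

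Genes of the type 1 and cytotoxic list were lower in AAA_14, 10 of the 13 measured (of 24 listed) by at least 2-fold and 0 higher. Over all genes 9.39% were lower and 11.2% higher. The list had a median log2 ratio of -1.43. The medians of the list were 0.13 in CD4 and -0.59 in CD8 cells. Ccl5 stood at 1069 CPM in AAA_7 (8 cells) and 228 in AAA_14 (7 cells), a log2 ratio of -2.23 (-2.60 to -1.86), and 1 cell held 76.1% of its UMIs in AAA_14. Ifng stood at 124 and 46.8 CPM, in 5 cells of each library (-1.43, -2.40 to -0.37), and with cells thinned to 1000 UMIs its ratio was 0.10. Klrc1, an NK receptor of the NKG2 family, stood at 199 and 13.6 CPM (-3.80, -5.32 to -2.61), and Gzma, a granzyme, at 182 and 37.0 CPM in 3 and 2 cells (-2.29, -3.27 to -1.35). Klrk1 was at 58.0 and 101 CPM (0.72, -0.34 to 2.19). Ccl5 and Ifng were read in a larger share of the cells without Cd163l1 in both libraries. In AAA_14, though, more of the cells that held either gene had a Cd163l1 UMI than lacked one. Cells without Cd163l1 were 10 of the 37 cells of AAA_7 and 10 of the 64 of AAA_14. The part of this makeup in the ratios was not tested. Without the marker-rich cells 8 of 12 were lower and the median was -1.33. With cells that held a UMI of Ncr1 or Klrb1c, 2 NK genes, left out, 5 of 9 were lower and the median was -1.68.

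Stress and immediate early genes were lower in AAA_14 as well, 8 of 18 by at least 2-fold and 0 higher. Over all genes 9.39% were lower and 11.2% higher, the background for both lists here. The median of the stress list was -0.94 against -0.06 in CD4 and -0.15 in CD8 cells. The list also fell in NK cells, from a sum of 16454 CPM in AAA_7 to 9956 in AAA_14, and in B cells from 17726 to 9956. In gamma-delta cells it fell from 25890 to 9183. Hspa1b, a heat shock protein, stood at 6321 CPM in 30 cells of AAA_7 and 933 in 46 cells of AAA_14 (-2.76, -2.93 to -2.59). The ratio was -0.30 in CD4 and -1.02 in CD8 cells. NK cells held Hspa1b at 3473 and 607 CPM and B cells at 5076 and 1433, so its fall was not particular to gamma-delta cells. Junb, a subunit of the AP-1 factor, stood at 5741 and 1691 CPM (-1.76, -1.91 to -1.62). Fos was at 224 and 230 CPM (0.02, -0.57 to 0.70), so not every gene of the list moved. Without the marker-rich cells 5 of 18 were lower and the median was -0.70. Of 12 tissue residence genes 6 were lower and 1 higher, with Rgs1 at 1632 and 690 CPM (-1.24), Nr4a1, a receptor-induced factor, at 621 and 158 CPM (-1.98) and Itgae at 41.4 and 95.5 CPM (1.08, -0.11 to 2.89). The medians of this list were -0.98 in gamma-delta, -1.32 in CD4 and -0.78 in CD8 cells.

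Interferon-stimulated genes gave 7 of 14 lower and 1 higher, against 9.39% and 11.2% of all genes. Their median was -1.09 where CD4 and CD8 cells had 0.34 and 0.53. Isg15, a ubiquitin-like protein, had 42 UMIs in 8 cells of AAA_7 and 14 in 8 cells of AAA_14 (-3.64, -4.66 to -2.77), and 1 cell held 42.9% of its UMIs in AAA_7. Ifitm3, a membrane protein that blocks viral entry, had 10 and 224 UMIs (2.33, 1.49 to 3.48). Without the marker-rich cells 4 of 9 were lower and the median was -0.27, and among genes with at least 50 UMIs 2 of 6 were lower and the median was -0.05.

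Genes of the interleukin 17 program did not move in 1 direction. Of the transcription factors and regulators 1 of 15, the kinase gene Blk, was at least 2-fold higher and 3 were lower, the first count near its background. Over all genes 11.2% were higher and 9.39% lower, the background for each list here. Blk stood at 207 and 583 CPM (1.47, 0.90 to 2.14), while Nfkbiz (-1.75), Gata3 (-1.22) and Stat3 (-1.05) were lower. Sox13 stood at 199 and 107 CPM (-0.91, -1.61 to -0.13). Of the receptors 6 of 17 were higher and 0 lower, with a median of 0.29. This did not hold under other settings. At the 5% limit 2 of 11 were higher and 2 lower (median -0.44), thinned to 1000 UMIs 0 of 8 were higher (-0.22), and with 5 counts added 1 of 17 was (0.13). Il2ra had 4 UMIs in 4 cells of AAA_7 and 88 in 42 cells of AAA_14, 33.1 and 171 CPM (2.21, 0.96 to 4.28), while the ratio was -1.20 in CD4 and -0.47 in CD8 cells. Tnfrsf25, the receptor of the cytokine TL1A, stood at 41.4 and 113 CPM (1.32, 0.14 to 3.12). Il23r (0.05) and Il1r1 (-0.26, -1.10 to 0.75) had intervals across 0. Of the 21 other genes 5 were at least 2-fold higher, among them Kcnk1 at 24.9 and 95.5 CPM (1.73, 0.31 to 4.27), and 4 were lower, among them Lmna, a lamin, at 157 and 27.3 CPM (-2.52, -3.64 to -1.46). S100a4 stood at 2088 and 3833 CPM (0.87, 0.69 to 1.07), under 2-fold. With 5 counts added 0 of these 21 genes were higher and 5 lower, and without the deepest cell of each library 1 was higher and 4 lower.

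The lists of energy metabolism had medians above 0. Of 17 genes of oxidative phosphorylation 4 were at least 2-fold higher and 0 lower, with a median of 0.33, against 11.2% and 9.39% of all genes. Cox5a, a subunit of cytochrome oxidase, stood at 232 and 520 CPM (1.14, 0.60 to 1.78). Of 13 glycolysis genes 3 were higher and 1 lower, with a median of 0.53. Aldoa stood at 174 and 403 CPM (1.18, 0.56 to 1.94) and Gapdh at 522 and 1050 (1.00, 0.63 to 1.41). The corresponding medians in CD4 and CD8 cells lay between -0.27 and 0.23. With 5 counts added, 0 genes of either list were 2-fold higher, and the medians were 0.16 and 0.31.

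Of the 12 genes with the highest ratios, most had the larger part of their AAA_14 UMIs in 1 cell. Ltf, Ngp, Camp, Lcn2, Ifitm6, Cd177, Wfdc21 and Pglyrp1, of which Ltf, Ngp, Camp and Lcn2 are proteins of neutrophil granules, had between 54.1% and 76.9% of their AAA_14 UMIs in 1 cell. Ltf had 0 UMIs in AAA_7 and 555 in AAA_14, at least 43.5-fold higher against 3 counts. Dcn, Apod and Aqp1, genes of stromal and vessel cells, had between 96.2% and 98.2% in 1 cell. With the UMIs of each gene's top cell left out in both libraries, the ratios of Dcn, Apod and Aqp1 were 0.72, -0.50 and -0.50. Those of the genes from Ltf to Pglyrp1 ran from 2.56 (Cd177) to 7.73 (Ngp). Ltf, Ngp and Cd177 then had 0 UMIs in AAA_7, so their ratios rest on the 0.5 counts added and are not estimates of size. Rpa1, a replication protein, had 32 UMIs in 21 cells of AAA_14 and 0 in AAA_7, at least 2.51-fold higher. Among the 12 lowest, Thbs1 and Tlr2 had 84.0% and 77.4% of their AAA_7 UMIs in 1 cell, while Hspa1b, Hspa1a (-2.46), Nfkbid (-2.70), an inhibitor of NF-kappa-B, Nr4a2 (-2.34), Nr4a3 (-2.51) and Snx18 (-2.24) were spread over 14 to 30 cells. Without the marker-rich cells, 2 of the 10 neutrophil markers were measured and 0 stood past 2-fold. The genes then highest were Trappc6b (0 and 31 UMIs), Eif4e (2.92), Dut (2.82) and Plin3 (2.76), all but the first with 1 or 2 UMIs in AAA_7. Cd48, an adhesion ligand, had 7 UMIs in AAA_7 and 169 in 37 cells of AAA_14 (2.44, 1.46 to 3.87).

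**Figure D5:**
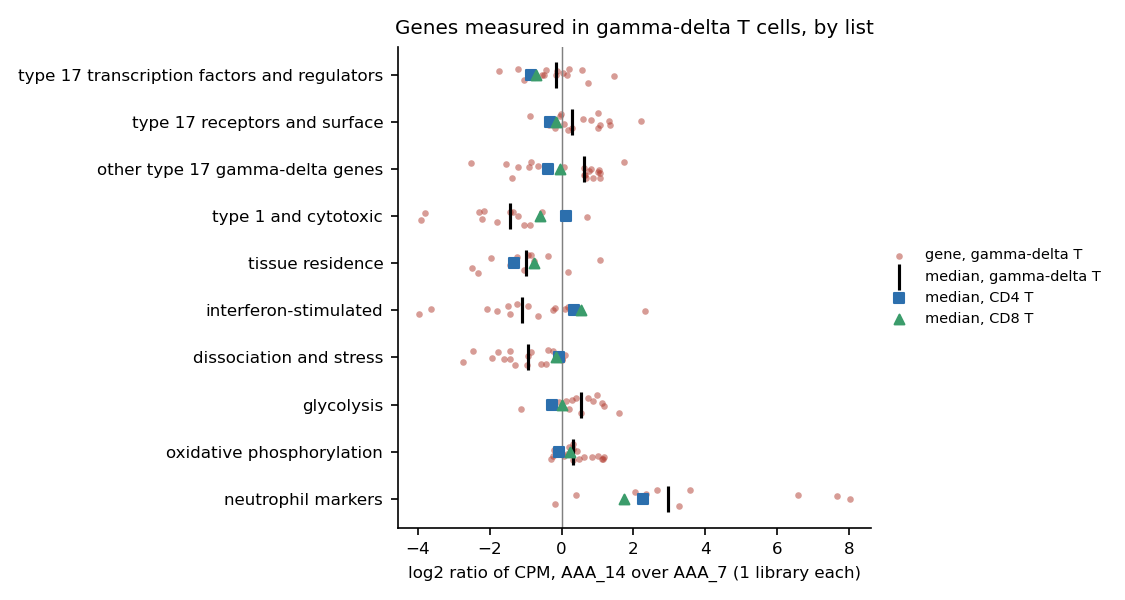
Log2 ratios of CPM, AAA_14 over AAA_7, for the genes measured in gamma-delta T cells in 10 lists, with 1 point per gene, black bars for the list median in gamma-delta T cells and blue and green marks for the medians in CD4 and CD8 T cells. The bar lies at -1.43 for the type 1 and cytotoxic list and at 2.96 for neutrophil markers.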

How the data were processed

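The authors deposited UMI counts for each gene and barcode; Cell Ranger 6.1.2 wrote them per the file headers, and the submitters' processing notes name mm10 and Seurat. Cells were gated with Python 3.11.15. Scrublet (scanpy 1.11.5) called 2, 0 and 0 doublets, which was taken as a failed call, so no doublet was removed and dropping the highest scores was an alternative. Ratios are of CPM with 0.5 counts added, for genes with 20 or more UMIs over AAA_7 and AAA_14. Summed counts were tested with edgeR 4.0.16 (TMM), with DESeq2 1.42.0 as an alternative, both with Benjamini-Hochberg adjustment and checked on simulated data. Named genes are list members, V genes, the 12 highest and 12 lowest ratios and the 15 highest and 10 lowest fold changes; some of them are not reported here. The members and lists were chosen with earlier results of these data known. Positions come from GENCODE vM21, which holds 99.8% of the gene identifiers, and promoters from RefSeq (GRCm38.p6).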

Additional observations from a re-analysis of the deposited data

How the results depend on the processing

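Of the results that answer a comparison, 80 values under other settings stayed close to the reported one and 30 moved. The share of gamma-delta cells was 0% in Sham and 0.442% in AAA_14 at a mitochondrial limit of 5%, and 0.868% in AAA_14 with no limit. Thinned to 1000 UMIs it was 0.409%, 0.504% and 0.687% in Sham, AAA_7 and AAA_14, and without marker-rich cells, which shrinks the denominator, 1.85%, 2.80% and 3.23%. Genes 2-fold higher in AAA_14 numbered 147 at the 5% limit, 57 thinned, 44 with 5 counts added, 1811 with no minimum and 152 with at least 50 UMIs, and genes 2-fold lower 80 thinned, 813 with 5 counts added, 2056 with no minimum and 155 with at least 50 UMIs. At the 5% limit, which left 7 cells of AAA_14, the median of all type 17 genes was -0.44, that of the alpha-beta constants -0.42, of the type 17 cytokines and Il17a -1.79, of NK markers 1.16 and the ratio of Areg -4.27. The hypoxia median was 0.052 without the highest Scrublet scores and 0.050 with TMM. Without marker-rich cells the ratio was 0.84 for Il17a, -0.091 for neutrophil markers, -0.48 for Apod, Aqp1 and Camp, -0.19 for Ifitm6 and -2.06 for Wfdc21, and Aqp1 was -0.45 without the highest Scrublet scores. Thinned, Ifng was 0.10. Against CD4 and CD8 cells, genes higher and lower numbered 351 and 180 by DESeq2, 269 and 105 without the library block, 158 and 181 thinned, with fewer genes tested, and 191 were lower against CD4 cells alone. Leaving out AAA_14 or AAA_7 gave 89 to 514 higher and 15 to 326 lower. Where no cause is named, the cause was not tested. Few cells limit what Sham can show: 0 of its 13 allows a share of cells with a UMI of up to 23.1% by a floor of 3 counts.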

Other observations

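The growth factor genes Areg and Hbegf were read in few gamma-delta cells of AAA_7 and AAA_14. At least 1 of the 18 genes of the tissue repair and growth factor list was read in 4 Sham, 23 AAA_7 and 51 AAA_14 cells. Areg, an epidermal growth factor receptor ligand linked to tissue repair, had 0 UMIs in Sham, 10 in 4 cells of AAA_7 and 86 in 5 cells of AAA_14, of which 71 lay in 1 cell, and was higher than in CD4 and CD8 cells by 5.13 ± 0.52 (SE, log2 fold change, edgeR adjusted p = 3.2e-06). Hbegf, a related ligand, had 23 UMIs in 9 cells of AAA_7 and 16 in 11 cells of AAA_14 and was higher by 3.71 ± 0.55. Of the 8 genes of this list tested, 3 were higher and 1 lower (7.41% and 4.73% of all genes; 1 and 0 without AAA_14), the other higher gene being Mmp9, a matrix protease also made by neutrophils (117 UMIs in 7 cells of AAA_14). Pdcd1, the inhibitory receptor PD-1, stood at 191 CPM in AAA_7 and 152 in AAA_14, against 22.4 and 32.8 in CD4 cells (3.10 ± 0.32 by edgeR). It was read in 13 of 27 and 29 of 54 cells with Cd163l1 and in 1 of 10 and 0 of 10 without.

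Mki67, a marker of dividing cells, was read in few gamma-delta cells. It was read in 0 of 13 Sham, 2 of 37 AAA_7 and 10 of 64 AAA_14 cells, against 1.39%, 4.29% and 16.5% of B cells, at 166 and 119 CPM in AAA_7 and AAA_14 (log2 ratio -0.50, -1.23 to 0.33). Of 13 cell cycle genes measured, 5 stood 2-fold or more above their AAA_7 level and 0 below it, with a median log2 ratio of 0.53, against 11.2% and 9.39% of all genes. A single AAA_7 cell held 48.9% of the list's UMIs there. Without the deepest cell of each library 9 of 13 were higher (median 1.61), and with 5 counts added 1 was higher and 1 lower (-0.09), so no direction is read for the list. Stmn1, a microtubule regulator, had 6 UMIs in 3 cells of AAA_7 and 107 in 11 cells of AAA_14 (1.96, 0.90 to 3.55).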
